A study of Sus scrofa domesticus with 12 samples.

Results

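The 10 chemokine ligands CCL2, CCL5, CCL8, CCL19, CCL21, CCL24, CXCL12, CXCL14, CXCL16 and CX3CL1 were taken by gene name from a table of 11506 genes, in which all 10 were present. They were measured by RNA-seq in the peroneus tertius (PT) muscle of female Yorkshire Cross pigs, 12 weeks after surgery that either left the muscle intact or cut out a piece from its middle, a volumetric muscle loss (VML) injury. In the sham-operated group (2 limbs, pigs 025 and 026) the muscle was exposed and nothing was removed. The VML injury was left without an implant in the non-repaired group (2 limbs, pigs 017 and 023). It was filled with a gel of modified hyaluronan, the biomaterial control, in the Hya-repaired group (2 limbs, pigs 016 and 017). In the ECM-repaired group (6 limbs, pigs 013, 014, 018, 021, 022 and 024) a decellularized extracellular matrix was sutured into the defect. GEO's labels name the matrix SIS for all 6 limbs, whereas the study describes SIS and UBM limbs, so the 6 are kept as 1 group and the matrices cannot be told apart here. The 12 limbs came from 11 pigs, since pig 017 gave 1 limb to the non-repaired and 1 to the Hya-repaired group. Both legs of a pig were operated on, and the sham-operated limbs are only 2. The 3 injured groups, weighted equally, are together called VML-injured.

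Chemokines are small proteins that draw cells along a gradient by binding G protein-coupled receptors on their surface. CC and CXC ligands are named for the spacing of their first cysteines, and CX3CL1, the only member of the CX3C class, is grouped with them here. Some are made when tissue is inflamed, such as CCL2, which recruits monocytes. Others are made steadily by stromal cells, such as CXCL12, which holds stem cells and lymphocytes in place, and CCL19 and CCL21 guide T cells and dendritic cells through CCR7. In injured muscle the monocytes that follow such signals become the macrophages that clear debris. No sequence is printed, as none of these ligands has one in the tables used here. In the RefSeq gene table of Sscrofa11.1, a later build than the study's, CCL19 and CCL21 are direct neighbors and CCL2 and CCL8 lie with 1 gene between them.

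The values are transcript abundances divided by transcript length and scaled to a common total per library (TPM), so levels can be compared between genes. Read counts were not used, and the study gives the sequencing depth only as an average per library. The depth of each library and the reads behind a value are therefore unknown. Precision is limited by how few limbs there are. Whole-tissue RNA cannot tell fewer cells of a type from less RNA per cell. The sham-operated libraries stood apart in makeup: 10 muscle fiber genes, among them ACTA1 and CKM, summed to 108500 and 111017 TPM there against 7319.7 to 54189 TPM in the injured limbs, and 7 of the 10 fell. Of the 8782 genes tested, 4335 were higher and 673 were lower in VML-injured than in sham-operated muscle, and the median log2 fold change was 0.73. After the libraries were rescaled by trimmed means of log ratios, the median was -0.01, with 2523 genes higher and 2520 lower. Leaving out sham pig 025 gave counts of 2458 and 126, and leaving out sham pig 026 gave 3582 and 178. Changes of the ligands are therefore given on both scales where the scale decides a direction or a call.

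Macrophage, fibroblast and lymphatic markers moved with the injury as well. All 9 macrophage genes in the table rose, 1 of which (MSR1) reached the filter through injured groups alone, and their summed level went from between 32.9 and 53.1 TPM in sham-operated to between 644 and 1679 TPM in injured limbs. All 7 fibroblast genes rose, from sums of 1119 and 1567 TPM to sums of 37407 to 96752 TPM. Both sets rose in full on both scales, against 49.4% of tested genes as deposited and 28.7% after rescaling. Of the lymphatic endothelial genes, LYVE1 and PDPN rose on both scales. However, PROX1, which defines that cell type, stayed below the filter, at 0.659 and 0.801 TPM in sham-operated and 0.225 to 1.07 TPM in injured limbs. LYVE1 and PDPN are also made by some macrophages and fibroblasts. The 4 T cell genes tested all reached the filter through injured groups alone, which selects for higher values there. Of these 4, 3 rose as deposited and 1 after rescaling. The 8 in the table summed to 2.70 and 3.90 TPM in sham-operated and 6.60 to 47.6 TPM in injured limbs. None of 5 blood endothelial genes passed the test (1 fell after rescaling), with sums of 145 to 232 TPM in sham-operated and 78.9 to 433 TPM in injured limbs. The 1 dendritic cell gene tested, CD83, rose, but not after rescaling. None of the 1 neutrophil, 1 epidermal and 3 adipocyte genes tested passed, and no B cell or eosinophil gene reached the filter. The part of these cell types in the values of the ligands was not tested.

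VML injury was accompanied by higher levels of 8 of the 10 ligands: CCL2, CCL5, CCL8, CCL19, CCL21, CCL24, CXCL14 and CXCL16. CCL21 had the largest log2 fold change, 4.40, and the other 7 ranged from 2.18 to 3.37. As a plain ratio of mean TPM, CCL8, which was close to 0 in the shams, was first at 35.7, before CCL21 at 26.6. CXCL12 and CX3CL1 did not pass the test, and no ligand was lower. These counts of 8 and 0 stand against 49.4% of all tested genes higher and 7.66% lower in the same comparison. The median log2 fold change of the 10 ligands was 2.75, against 0.73 for all tested genes. After rescaling the median was 1.97, against -0.01, and 7 ligands rose, against 28.7% of tested genes. All 10 passed the filter of at least 1 TPM in all limbs of at least 1 group, 9 of them also in the sham-operated group. CCL8 passed through injured groups alone, which selects for higher values there. Of the other 9, 7 rose as deposited and 6 after rescaling, against 49.4% and 28.7% of tested genes.

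**Figure D1:**
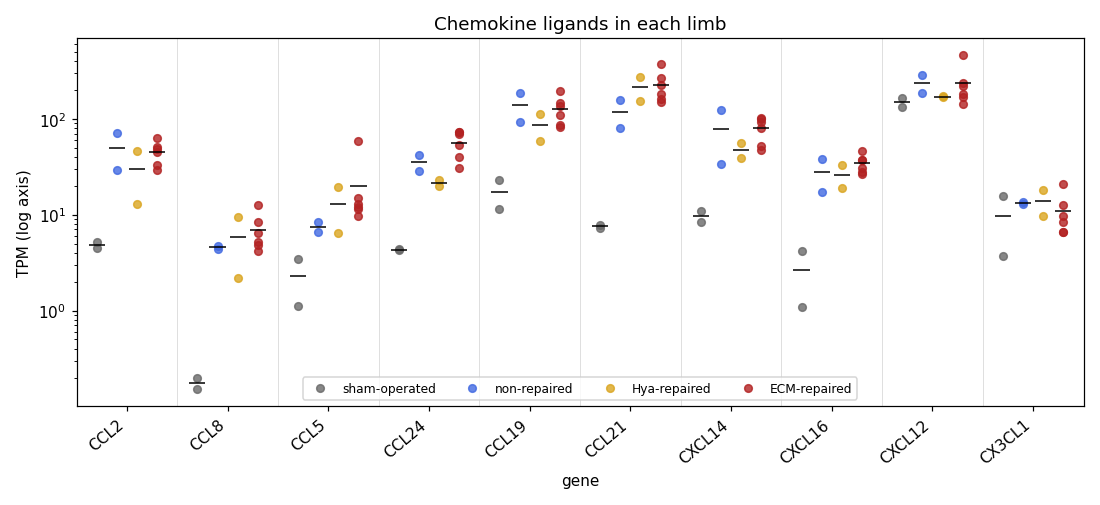
TPM (log axis) of the 10 ligands in each of the 12 limbs, with a point for each limb, colored by group, and a line at the group mean. For 8 ligands all 10 injured limbs lie above both sham-operated limbs, whereas the groups overlap for CXCL12 and CX3CL1.

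In the sentences that follow, values are in the order of the pigs named above, and the 6 ECM-repaired limbs are given by their lowest, median and highest. The inflammatory CC ligands come first. CCL2, which attracts monocytes through CCR2, was at 4.53 and 5.19 TPM in the sham-operated, 29.0 and 70.7 TPM in the non-repaired and 46.4 and 13.01 TPM in the Hya-repaired limbs, and at 29.1, 46.7 and 62.9 TPM in the ECM-repaired limbs. Every injured limb was above both shams, the closest being the Hya-repaired limb of pig 017. The sham-operated mean of 4.86 ± 0.464 TPM (SD, n = 2) compares with 42.8 ± 17.2 TPM (SD, n = 10) after injury. CCL2 rose by 2.79 on the log2 scale (SE 0.44, limma adjusted p = 0.000196).

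CCL8, a close relative of CCL2 that also acts on monocytes, was nearly absent from the sham-operated limbs, at 0.199 and 0.151 TPM. It was at 4.76 and 4.41 TPM in the non-repaired limbs, at 9.47 and 2.19 TPM in the Hya-repaired limbs, and at 4.19, 5.78 and 12.7 TPM in the ECM-repaired limbs. Even the lowest injured limb was 11.02 times the higher sham. The log2 fold change was 3.07 (SE 0.46, limma adjusted p = 0.000134), a value that the added 0.5 TPM holds down for a gene this low in sham-operated muscle. Of the pair, CCL2 was the more abundant in every limb, by 22.8 and 34.4 times in the sham-operated and by 4.90 to 16.02 times in the injured limbs, and these ranges did not overlap.

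CCL5, made by T cells and macrophages among others, acts through receptors that include CCR1 and CCR3. It was at 1.12 and 3.46 TPM in the sham-operated, 8.34 and 6.59 TPM in the non-repaired and 19.5 and 6.50 TPM in the Hya-repaired limbs. The ECM-repaired limbs had 9.73, 12.4 and 59.3 TPM, and the highest value belonged to pig 018. The shams differed from each other more for CCL5 than for CCL2, and the margin of the lowest injured limb over the higher sham was 1.88 times. CCL5 rose by 2.18 on the log2 scale (SE 0.60, limma adjusted p = 0.00881). This call was lost after rescaling (1.50, limma adjusted p = 0.0611), where 9 of 10 injured limbs were above both shams, and with sham pig 025 left out (1.54, limma adjusted p = 0.156).

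CCL24, which attracts eosinophils through CCR3, was even among the shams, at 4.40 and 4.23 TPM. It was at 28.2 and 41.9 TPM in the non-repaired limbs, 20.1 and 23.01 TPM in the Hya-repaired limbs, and 30.8, 61.3 and 72.0 TPM in the ECM-repaired limbs. The lowest injured limb was 4.57 times the higher sham, and the lowest ECM-repaired limb was above both Hya-repaired limbs. CCL24 rose by 2.85 on the log2 scale (SE 0.32, limma adjusted p = 1.51e-05). The eosinophil genes EPX, IL5RA and CCR3 did not reach the filter and were not tested, with sums of 0.0299 and 0.0187 TPM in the shams and 0.01996 to 0.559 TPM in the injured limbs.

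CCL19 and CCL21 are the ligands of CCR7. CCL21, best known from lymphatic endothelium and the stroma of lymph nodes, was at 7.83 and 7.30 TPM in the sham-operated limbs. It reached 156 and 79.2 TPM in the non-repaired limbs, 273 and 154 TPM in the Hya-repaired limbs, and 149, 202 and 375 TPM in the ECM-repaired limbs. Every injured limb was at least 10.1 times the higher sham, and the means were 7.57 ± 0.370 TPM (SD, n = 2) and 202 ± 84.2 TPM (SD, n = 10). The log2 fold change was 4.40 (SE 0.36, limma adjusted p = 1.92e-06) and 3.61 after rescaling.

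CCL19, made mainly by stromal and dendritic cells, started higher, at 11.4 and 22.7 TPM in the sham-operated limbs. It was at 92.0 and 187 TPM in the non-repaired, 58.7 and 113 TPM in the Hya-repaired limbs, and 82.7, 123 and 195 TPM in the ECM-repaired limbs. All injured limbs were above both shams, by at least 2.59 times. CCL19 rose by 2.72 on the log2 scale (SE 0.39, limma adjusted p = 0.000104). Within a limb, CCL21 was 0.32 and 0.69 times CCL19 in the shams and 0.42 to 4.65 times in the injured limbs, with a median of 1.75. The order of the pair turned in 9 of 10 injured limbs, the exception being the non-repaired limb of pig 023 at 0.42.

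The CXC ligands with a rise were CXCL14 and CXCL16. CXCL14, which epithelia and fibroblasts produce, was at 8.43 and 11.04 TPM in the sham-operated, 33.3 and 123 TPM in the non-repaired and 56.3 and 38.6 TPM in the Hya-repaired limbs, and at 47.3, 86.8 and 102 TPM in the ECM-repaired limbs. All 10 injured limbs were above the shams, and the lowest of them was the non-repaired limb of pig 017. CXCL14 rose by 2.60 on the log2 scale (SE 0.43, limma adjusted p = 0.000286).

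CXCL16 is made as a membrane protein, which binds CXCR6 and also takes up oxidized lipid. It was at 1.09 and 4.21 TPM in the sham-operated, 38.2 and 17.2 TPM in the non-repaired and 32.6 and 18.9 TPM in the Hya-repaired limbs. The ECM-repaired limbs had 26.7, 33.5 and 46.1 TPM. The lowest injured limb was 4.08 times the higher sham, although the shams themselves were far apart. CXCL16 rose by 3.37 on the log2 scale (SE 0.40, limma adjusted p = 2.40e-05).

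CXCL12, the ligand of CXCR4, was the most abundant of the 10 in sham-operated muscle, at 134 and 166 TPM. It was at 184 and 284 TPM in the non-repaired limbs, 174 and 167 TPM in the Hya-repaired limbs, and 143, 201 and 467 TPM in the ECM-repaired limbs. As deposited, 9 of 10 injured limbs were above both shams, but the margin was small in most. The log2 fold change was 0.45 (95% CI -0.34 to 1.24, limma adjusted p = 0.304), and -0.37 after rescaling (95% CI -0.95 to 0.21, limma adjusted p = 0.256), so its direction depended on the scale. On the rescaled values the shams were at 235 and 242 TPM, and 1 of 10 injured limbs, the ECM-repaired limb of pig 024 at 301 TPM, was above them.

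CX3CL1, or fractalkine, is a membrane-bound ligand of CX3CR1 that endothelium and muscle can display and that ADAM10 and ADAM17 release. It was at 3.73 TPM in the sham-operated limb of pig 025 and at 15.5 TPM in that of pig 026. The injured limbs lay between these in 8 of 10 cases, at 13.01 and 13.6 TPM in the non-repaired, 18.3 and 9.72 TPM in the Hya-repaired, and 6.56, 9.08 and 20.8 TPM in the ECM-repaired group. Only 2 of 10 injured limbs were above both shams. The log2 fold change was 0.61 (95% CI -0.44 to 1.67, limma adjusted p = 0.295) and -0.16 after rescaling. Its value rested on the shams: it was -0.35 without pig 025 and 1.57 without pig 026, the latter with a limma adjusted p of 0.0330.

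**Figure D2:**
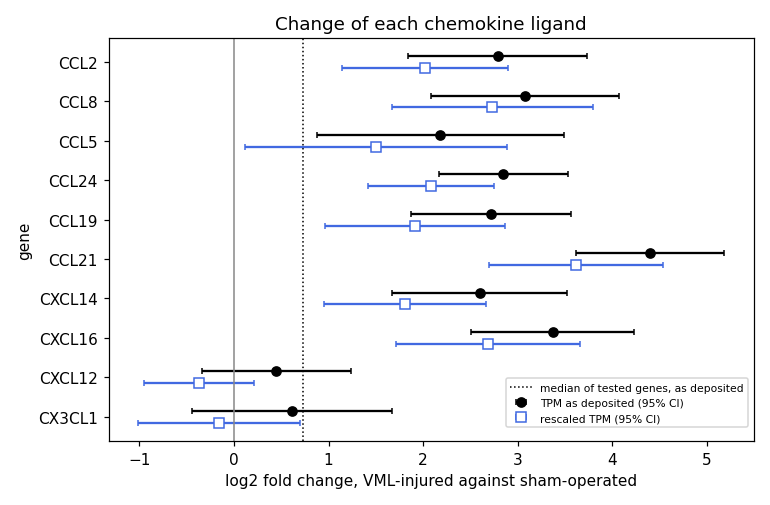
The log2 fold change of each ligand in VML-injured against sham-operated muscle with its 95% confidence interval, for TPM as deposited (filled circles) and after rescaling (open squares), and the median of all tested genes (0.73, dotted). The rescaled values are lower for all 10, and those of CXCL12 and CX3CL1 move from above 0 to below 0.

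As a count of separate groups, 8 of 10 ligands had every injured limb above both shams, against 49.8% of tested genes, and 7 of 10 after rescaling, against 28.3%. CCL5 was the ligand that left this count on the rescaled values. CCL8, which passed the filter through injured groups alone, is in the count on both scales.

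Within the 10 chosen ligands, the makeup of their sum changed from 1 dominant ligand to several. Other chemokine ligands are outside this sum, such as CCL14, at 23.5 and 31.2 TPM in the shams and 53.8 to 181 TPM in the injured limbs. Together the 10 ligands had 176 and 240.2 TPM in the shams against 545 to 1072 TPM after injury. CXCL12 made up 75.8 and 69.3% of the sum in the shams. Its share after injury was 28.8 ± 7.68% (SD, n = 10), from 15.6 to 43.7%. CCL21 made up 4.44 and 3.04% in the shams and 9.57 to 38.5% in the injured limbs. Neither range overlapped that of the other group. In 5 of the 10 injured limbs CCL21 was above CXCL12, whereas its ratio to CXCL12 was 0.044 and 0.059 in the shams. CCL19 had 6.46 and 9.45% of the sum in the shams and 8.29 to 22.6% in the injured limbs, and these ranges overlapped. The shares of CXCL14 (4.59 and 4.78% against 5.69 to 14.9%), CCL24 (1.76 and 2.49% against 2.84 to 10.96%) and CCL8 (0.0629 and 0.113% against 0.392 to 1.44%) did not. CXCL16 (0.616 and 1.75% against 2.07 to 6.52%) had no overlap either. The shares of CCL2 (2.16 and 2.57% against 2.39 to 8.53%), CCL5 (0.637 and 1.44% against 0.795 to 5.53%) and CX3CL1 (2.11 and 6.46% against 0.612 to 2.58%) overlapped. Shares within a limb do not depend on how the libraries are scaled, and they were not tested.

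**Figure D3:**
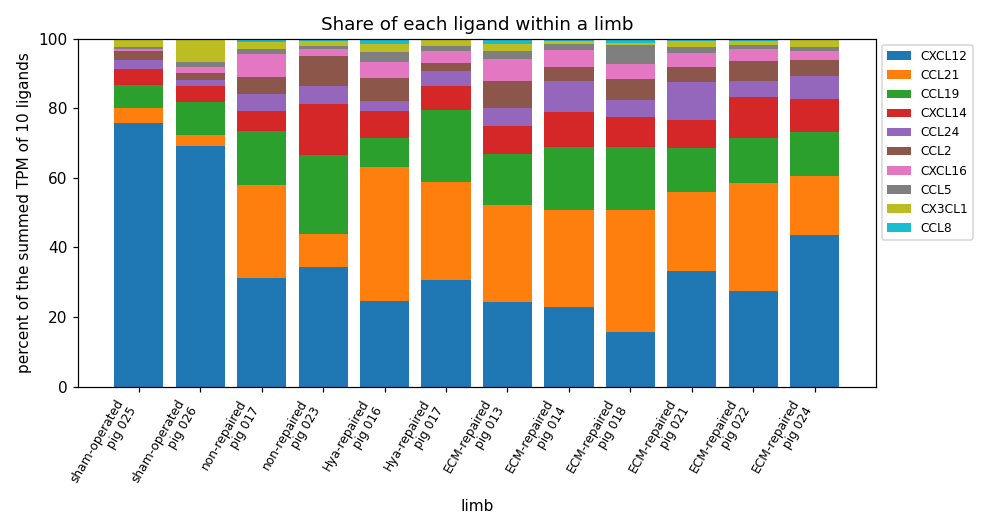
Share of each ligand in the summed TPM of the 10 ligands (percent), with a bar for each of the 12 limbs. CXCL12 takes 69.3 and 75.8% in the sham-operated limbs and at most 43.7% in an injured limb, where CCL21 and CCL19 take much of the remainder.

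The 2 ligands that are anchored in the membrane moved apart. CX3CL1 was 3.43 and 3.69 times CXCL16 in the sham-operated limbs and 0.142 to 0.790 times in the injured limbs, so their order turned in all 10. This pair was picked after the values were seen, and the ratio was not tested.

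Each injured group was next set against the same 2 sham-operated limbs, which the 3 comparisons therefore share. In the ECM-repaired group 8 ligands rose, against 48.0% of tested genes. In the Hya-repaired group the same 8 rose, against 33.9%. In the non-repaired group 7 rose, against 45.1%, and CCL5 was the exception, at 1.64 on the log2 scale (limma adjusted p = 0.0916). Each of these counts includes CCL8, which passed the filter through injured groups alone. The 8 in the Hya-repaired group fell to 5 without the limb of pig 016, where CCL2, CCL5 and CXCL14 no longer passed. They fell to 4 without the sham-operated limb of pig 025.

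CCL21 had the largest log2 fold change in every injured group, at 4.73 (ECM-repaired), 3.79 (non-repaired) and 4.67 (Hya-repaired) (limma adjusted p = 1.39e-06, 6.03e-05 and 2.65e-05). CXCL16 had 3.64, 3.26 and 3.21 in the same order, above CCL8 as deposited, whereas after rescaling CCL8 was above it in each group (3.05 against 2.97, 2.404 against 2.387 and 2.74 against 2.69). CCL24 had 3.49, 2.86 and 2.19, CCL8 had 3.37, 2.91 and 2.94, and CCL19 had 2.86, 2.99 and 2.30. CCL2 had 3.03, 3.10 and 2.23, CXCL14 had 2.91, 2.67 and 2.21, and CCL5 had 2.68, 1.64 and 2.22. The Hya-repaired estimate was the lowest of the 3 for CCL2, CCL19, CCL24, CXCL12, CXCL14 and CXCL16, for CXCL16 as deposited but not after rescaling, and the intervals overlapped for each of them. CXCL12 had 0.54, 0.61 and 0.19 and CX3CL1 had 0.34, 0.74 and 0.75, and neither passed in any group.

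**Figure D4:**
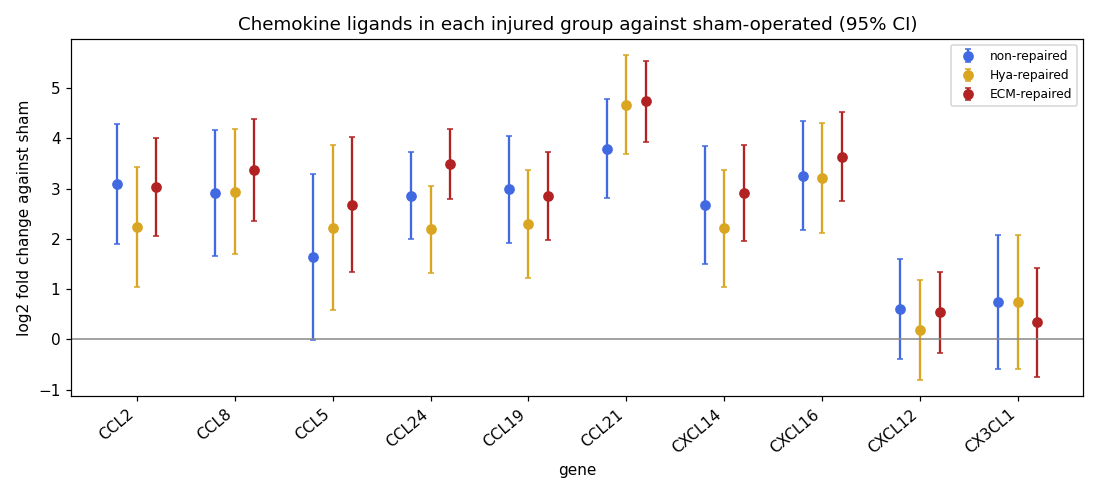
The log2 fold change of each ligand against the sham-operated limbs with its 95% confidence interval, in 3 colors for the injured groups (non-repaired, then Hya-repaired, then ECM-repaired). The intervals of the 3 groups overlap for every ligand, and CXCL12 and CX3CL1 include 0 in all groups.

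No ligand passed the test between injured groups. ECM-repaired limbs, set against both groups that received no ECM, gave 0 calls among the ligands and 0% among all genes by limma, and 1 ligand, CCL24, had an unadjusted p under 0.05, as did 1.30% of genes. CCL24 averaged 56.2 ± 17.8 TPM (SD, n = 6) in the ECM-repaired, 35.1 ± 9.69 TPM (SD, n = 2) in the non-repaired and 21.6 ± 2.05 TPM (SD, n = 2) in the Hya-repaired limbs. The difference from the groups without ECM was 0.96 on the log2 scale (95% CI 0.41 to 1.52), with a limma unadjusted p of 0.00254 and an adjusted p of 1.00. Against the Hya-repaired limbs it was 1.30 (95% CI 0.592 to 1.999, limma adjusted p = 1.00), where 1 ligand and 2.35% of genes had an unadjusted p under 0.05. Against the non-repaired limbs that ligand was CCL21 in place of CCL24, at 0.94 (95% CI 0.14 to 1.75, limma adjusted p = 0.904), beside 0.808% of genes. For the other ligands the intervals of ECM-repaired against the groups without ECM reached from -1.27 for CX3CL1 to 1.81 for CCL5, so differences of more than 2-fold either way were within them for some.

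Single limbs stood out in several ligands at once. The ECM-repaired limb of pig 018 was the highest of the 10 injured limbs for CCL5, CCL8, CCL19, CCL21 and CXCL16 and the lowest for CX3CL1, on both scales. It also had the highest sums of macrophage (1679 TPM), T cell (47.6 TPM) and neutrophil genes (26.5 TPM, against at most 5.80 TPM in the other injured limbs). The Hya-repaired limb of pig 017 was the lowest for CCL2 and CCL8 on both scales and for CCL5 as deposited, with the most muscle fiber RNA (54189 TPM) and the least macrophage RNA (644 TPM) of the injured limbs. The non-repaired limb of pig 023 was the lowest for CCL21 and CXCL16 on both scales. It was the highest for CCL2 and CXCL14 as deposited, whereas after rescaling the ECM-repaired limb of pig 018 was above it (64.9 against 53.4 TPM for CCL2, and 96.0 against 93.2 TPM for CXCL14). The ECM-repaired limb of pig 024 was the highest for CXCL12 on both scales, and for CX3CL1 as deposited but not after rescaling (13.4 TPM, against 16.3 TPM in the Hya-repaired limb of pig 016). The part of these cell types in the ligand values was not tested.

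Across the 10 injured limbs, which come from 9 pigs, the ligands did not vary as 1 block. The 45 pairs had a median Pearson r of 0.22, from -0.40 for CCL19 with CX3CL1 to 0.82 for CCL5 with CCL8, and 30 pairs were above 0. CCL5 and CCL8 had a Spearman rho of 0.84, and r was 0.75 without pig 018 and 0.65 without the 2 limbs farthest from the median of CCL5. CCL2 and CXCL14 had r = 0.75 and rho = 0.89, and r was 0.64 without 2 limbs in the same way. The neighbors CCL19 and CCL21 had r = -0.09 and rho = 0.08, and r was -0.53 without pig 018. After rescaling their r was 0.18, so its sign depended on the scale. The lowest r of all pairs was then -0.71, for CCL24 with CX3CL1. These are descriptions over few limbs that share their scaling, and no p is given.

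For each ligand, the 3 most similar genes by Pearson r over the injured limbs were taken from 8077 tested genes with a symbol, so each r is the top of a long ranking. CCL24 was most like CCL14, a chemokine found in blood plasma (0.92, and 0.90 after rescaling), then DHX30 (0.90) and PARD6G (0.89). CXCL16 was most like LAG3, an inhibitory receptor of T cells (0.96 on both scales), then PLEKHO1 (0.94) and AGTRAP (0.93). CCL5 was most like AMBN (0.94), ARHGDIB (0.94), and FCER1G, the signaling chain of Fc receptors (0.94). CCL8 followed ADAM28 (0.93), ID1 (0.91) and HCST (0.90), and CCL21 followed PSMB10, an immunoproteasome subunit (0.92), RRP36 (0.91) and DEFB1 (0.91).

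CXCL12 was most like BCL2L1, an inhibitor of apoptosis (0.98), DHX35 (0.97) and NKAP (0.97), and the last fell to 0.66 after rescaling. CX3CL1 was most like PAFAH2 (0.98), SLCO4C1 (0.93) and MKLN1 (0.92), and the last fell to 0.30. CCL2 was most like SSBP1 (0.94, but 0.37 after rescaling), P2RY11 (0.91) and RAD18 (0.90). CXCL14 was most like NEK6 (0.90), GINS3 (0.89) and KCNQ1 (0.89), and CCL19 like VMA21 (0.86), PNO1 (0.85) and SPTSSA (0.84).

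The chemokine receptors reported here summed to less than the 10 ligands, at 13.3 and 23.3 TPM in the shams and 32.4 to 136 TPM in the injured limbs. Their list also holds receptors of other ligands, such as CCR6. Much of the sum was ACKR1, at 9.31 and 17.9 TPM in the shams. Of 22 receptor genes listed, 19 were in the table and 7 passed the filter. Of these, 5 passed it through injured groups alone, which selects for higher values there. Among the 5, CCR1, CCRL2 and CCR6 rose. ACKR2 and ACKR4 did not pass the test, with 8 and 6 of 10 injured limbs above both shams. Of all 7, 4 rose and none fell, a share near the 49.4% of tested genes, and 3 rose after rescaling, when 28.7% of tested genes did. Of the 2 that reached the filter also in the shams, CXCR4 and ACKR1, CXCR4 rose as deposited and neither rose after rescaling. CCR1, a receptor of CCL5, was at 0.107 and 0.103 TPM in the sham-operated and 1.13 to 3.98 TPM in the injured limbs, a change of 2.17 on the log2 scale (limma adjusted p = 6.83e-05). Every injured limb was above both shams.

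CXCR4, the receptor of CXCL12, was one of the 2 receptors that passed the filter in the shams, at 1.999 and 2.71 TPM, and was at 4.52 to 15.1 TPM in the injured limbs. It rose as deposited (1.42, limma adjusted p = 0.00937) but not after rescaling (0.71, limma adjusted p = 0.136). CCRL2, which presents chemerin to other cells, rose by 1.39 on the log2 scale (limma adjusted p = 0.00183). CCR6, the receptor of CCL20, was listed at 0 in both shams and in the ECM-repaired limb of pig 013 and at 0.416 to 3.23 TPM in the other injured limbs (limma adjusted p = 0.0251). Like CCR1, CCRL2 and CCR6 reached the filter through injured groups alone, which selects for higher values there. ACKR1, a receptor of venous endothelium and red cells that binds many chemokines without signaling, was the most abundant receptor. It had 9.31 and 17.9 TPM in the shams and 15.6 to 102 TPM in the injured limbs, and did not pass (1.36, limma adjusted p = 0.0533).

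The cognate receptors of the other ligands were below 1 TPM in both shams. CCR7, the receptor of CCL19 and CCL21, was listed at 0 and 0.0281 TPM in the shams and was at 0.103 to 0.704 TPM in the injured limbs. CCR2, the receptor of CCL2, was at 0.142 and 0.123 TPM and at 0.373 to 3.29 TPM. CX3CR1, the receptor of CX3CL1, was at 0.269 and 0.129 TPM and at 0.267 to 1.31 TPM, and CXCR6, the receptor of CXCL16, at 0.112 to 0.140 TPM and at 0.116 to 2.63 TPM. CCR3, the receptor of CCL24, did not exceed 0.414 TPM in any limb. In a fit with no filter, 7 of the 19 receptors in the table rose, beside 4499 of 11267 genes, so the count does not set the receptors apart. CCR2, CCR7 and CCR10 were among the 7 (limma adjusted p = 0.0476, 0.0436 and 0.0159), while CX3CR1, CXCR3 and CXCR6 did not pass. ACKR3, which also binds CXCL12, was not analysed here.

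**Figure D5:**
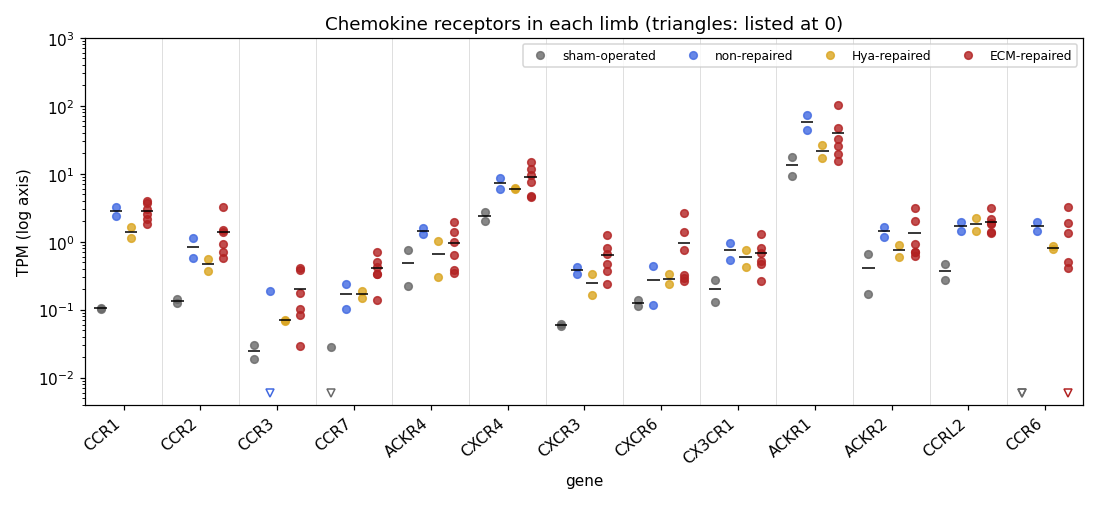
TPM (log axis) of 13 chemokine receptors in each limb, colored by group, with a line at the mean of groups in which no limb is listed at 0, and open triangles for limbs listed at 0. Of these, ACKR1 and CXCR4 alone are above 1 TPM in both shams, which lie below every injured limb for CCR1, CCR2, CXCR4 and CCRL2 among others.

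Among the other chemokine ligands, 22 of 32 listed were in the table and 10 passed the filter, 6 of them also in the shams. Of those 6, CCL14 alone rose, on both scales, and none fell. Of all tested genes, 49.4% rose as deposited and 28.7% after rescaling. It is CCL14 that the next values describe. It was at 23.5 and 31.2 TPM in the shams and 53.8 to 181 TPM in the injured limbs (1.66, limma adjusted p = 0.000447). CCL23, a myeloid chemoattractant, was at 0.252 and 1.08 TPM and at 2.42 to 18.4 TPM (2.62, limma adjusted p = 0.00305). CCL3L1 (1.82, limma adjusted p = 0.00160) and CCL25 (1.18, limma adjusted p = 0.0124) rose from below 1 TPM. CCL23, CCL3L1 and CCL25 reached the filter through injured groups alone, which selects for higher values there. CCL3L1 has near-identical copies whose reads could be shared. The interferon-induced CXCL9 and CXCL10 did not pass (0.68 and 0.85, limma adjusted p = 0.415 and 0.204), and neither did CCL4 or CXCL2.

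Of the genes that cut, release or hold chemokines, 9 reached the filter also in the shams. Of these 8 rose as deposited, against 49.4% of tested genes, and 5 after rescaling, against 28.7%, and SDC1 reached the filter through injured groups alone. SDC2, a heparan sulfate proteoglycan that can bind chemokines at the cell surface, went from 9.59 and 11.003 TPM in the shams to 92.3 to 226 TPM in the injured limbs (4.01, limma adjusted p = 7.52e-07). MMP2 (5.48, limma adjusted p = 1.49e-06) and MMP14 (4.99, limma adjusted p = 2.73e-06), proteases that can cleave CCL and CXCL ligands, had larger changes. ADAM10, which releases CXCL16 and CX3CL1, rose by 0.97 as deposited (limma adjusted p = 0.0251) but not after rescaling (0.17, limma adjusted p = 0.459). Of these 4, ADAM10 alone was chosen after its values were seen.

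Of the genes that induce chemokines, 9 reached the filter also in the shams. Of these 7 rose as deposited, against 49.4% of tested genes, and 3 after rescaling, a share near the 28.7% of tested genes, and none fell. IL6 and TNFAIP3 reached the filter through injured groups alone. The cytokines TNF, IL4, IL13, IFNG and LTA did not reach it. In a fit with no filter none of them passed, with log2 fold changes of 0.05 to 0.17 (limma adjusted p from 0.242 to 0.904). STAT6, which acts below interleukin-4 receptors and can drive CCL24, went from 3.78 and 8.26 TPM in the shams to 18.5 to 52.3 TPM in the injured limbs (2.59, limma adjusted p = 0.000103). LTBR and its ligand LTB, which induce CCL19 and CCL21 in lymphoid stroma, rose by 1.60 and 1.36 on the log2 scale (limma adjusted p = 0.000494 and 0.00285), and LTB did not pass after rescaling (0.71, limma adjusted p = 0.0761).

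Of the genes that signal below chemokine receptors, 7 reached the filter also in the shams, and 6 of them rose on both scales, against 49.4% of tested genes as deposited and 28.7% after rescaling. The other 3 tested, RAC2, VAV1 and RGS1, reached it through injured groups alone, which selects for higher values there. GNAI1 (2.68, limma adjusted p = 7.10e-06) and GNAI3 (2.71, limma adjusted p = 9.62e-06) encode inhibitory G protein subunits, and ARRB1 (2.42, limma adjusted p = 1.95e-05) an arrestin that takes receptors off the membrane. These 3 went from at most 7.65 TPM in a sham-operated limb to at least 12.01 TPM in every injured limb. GRK2, a kinase that prepares receptors for arrestin, was the gene that did not pass (0.45, limma adjusted p = 0.235).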

How the data were processed

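Total RNA of 12 PT limbs was sequenced by the authors as paired-end TruSeq libraries and pseudoaligned to the UCSC-annotated pig genome with kallisto at default parameters. The values used are the TPM (abundances per transcript length, with a common total per library) deposited by the authors for 11506 named genes, which hold 71.5 to 82.7% of the TPM of a library. Of the names that begin with LOC, 618 of 1833 were given a symbol from the reference, and 239 genes are at 0 in every library.

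Genes with at least 1 TPM in all limbs of at least 1 group were tested (8782) as log2(TPM + 0.5), so fold changes are on that scale and understate the change of low genes. All limbs entered 1 fit with limma 3.58.1 in R 4.3.3 (lmFit, contrasts.fit, eBayes with trend and robust), with a coefficient per group, two-sided, and Benjamini-Hochberg adjustment over all tested genes at 0.05. DESeq2, which the authors used, needs counts. The method was tested on simulated data. Rescaling used trimmed means of log ratios (30%, and 5% of abundance) or medians of ratios. Other alternatives were pseudocounts of 0.1 and 1, no filter or a stricter one, limma without trend and robust, only the compared groups, a 2-fold threshold, each limb left out and both limbs of pig 017 left out.

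The members, the gene lists and the rule for named genes (all 10 ligands, the 4 receptors and 4 other ligands and the 3 genes of each further list with the smallest p, and 3 similar genes per ligand) were chosen with earlier results of these data known. Of the further lists, 1 receptor and 1 inducer are not reported here and are in no count or sum of their lists. Genes named beyond it were chosen after their values were seen. P-values measure the spread between limbs.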

Additional observations from a re-analysis of the deposited data

Results flagged for a closer look

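Of 18 genes examined among the 6 ECM-repaired limbs, 2 had a limb that stood apart from the others by Dixon's test, whose critical value for 6 limbs is 0.625, and at this level chance alone would flag 1 group of 20. CCL5 was at 59.3 TPM in the ECM-repaired limb of pig 018 and at 9.73 to 14.9 TPM in the other 5, a gap of 0.896 of the range, and on the rescaled values it was at 61.1 TPM against 7.33 to 16.04 TPM. CXCL12 was at 467 TPM in the ECM-repaired limb of pig 024 and at 143 to 235 TPM in the other 5, a gap of 0.716 of the range, and at 301 TPM against 156 to 205 TPM on the rescaled values. Why these limbs differ was not tested.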

How the results depend on the processing

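Over all alternatives, 193 counts stayed within 1.5 times the main count, or at 0 where that was 0, and 5 did not. The counts of 0 (ligands or receptors lower, and ligands that differ between injured groups) stayed at 0 throughout and are among the 193. For single ligands, 210 values kept their direction and side of the threshold. CCL2, CCL8, CCL19, CCL21, CCL24, CXCL14 and CXCL16 passed in every alternative that could be fitted, CCL8 being left out by the filter of 1 TPM in all libraries. The median-of-ratios scale gave log2 fold changes of -0.37 for CXCL12 and -0.16 for CX3CL1, like the trimmed-mean scale (-0.37 and -0.16), and 1.50 for CCL5 (limma adjusted p = 0.0618). With single limbs left out, CX3CL1 ranged from -0.35 to 1.57, the Hya-repaired count of ligands from 4 to 8 and the count of receptors from 2 to 5, the lowest receptor count without the sham-operated limb of pig 025. The receptor count was 7 with no filter, beside 4499 of 11267 genes. It was 1 where 1 TPM was required in all libraries, which leaves fewer genes tested. Without that sham-operated limb CCL5 also lost its call in the ECM-repaired group (limma adjusted p = 0.0718), and CCL2, CCL5, CCL19 and CXCL14 lost theirs in the Hya-repaired group (0.0575, 0.248, 0.0527 and 0.0632). In the Hya-repaired group CCL5 also missed the threshold after rescaling (0.104), with no filter (0.0520) and without either non-repaired limb (0.0501 and 0.0502). In the non-repaired group CCL5 passed with the compared groups alone (0.00952) and without pig 018 (0.0197), and CX3CL1 without the sham-operated limb of pig 026 (0.0455). The causes were not tested. No paired analysis was possible because the replicate numbers follow the order of the samples and only pig 017 gave limbs to 2 groups. With 2 limbs in 3 of the groups, a lone limb left in a group is assumed to vary like the others.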
